A study of Homo sapiens with 2 samples.

Results

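Histone cluster genes are the genes whose symbol in the platform annotation begins with H1-, H2AC, H2BC, H3C or H4C followed by a digit, and every probe set paired with exactly 1 such gene was taken. The rule gave 58 probe sets of 50 genes, out of 41091 probe sets and 19775 genes on the array that had a pairing with 1 gene. By symbol, 46 of the 50 are histone genes, 3 are pseudogenes (H1-9P, H2AC5P and H4C10P) and 1 is the antisense RNA H1-10-AS1, and the last 4 were all too dim to measure. The samples were 2 expression arrays of KYSE170-luc, a human esophageal squamous carcinoma line with a luciferase marker. It was transfected with an empty vector in the control group and with SOX17, a transcription factor gene, in the other, each for 12 h, with 1 array per group. Neither the transfected share of cells nor the promoter of the plasmid was given in the sources used here. There is thus no replicate and no p-value, and every difference below is between these 2 arrays.

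Histones are the proteins around which DNA is wound. H2A, H2B, H3 and H4 form the nucleosome core, and H1 binds the linker DNA between nucleosomes. Most of the genes named here are replication-dependent: they lie in clusters, are transcribed in S phase under the coactivator NPAT, and their mRNAs end in a stem-loop bound by SLBP in place of a poly(A) tail. Standard Affymetrix labelling, which the labels name, starts from the poly(A) tail, so the intensities cannot be read as the total amount of a histone mRNA. Many of these genes are also nearly identical in their coding sequence, and a probe set whose ID ends in _x_at holds probes that can match other transcripts.

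An intensity counts as measured here when it lies at or above a floor of 95 on both arrays; 60% of the pooled values lie below this floor. Both arrays had a mean intensity of 500.1 once the lowest and highest 2% of values were left out. SOX17 itself could not be measured: one of its probe sets read 4.5 with the empty vector and 83.8 with SOX17, the other 19.1 and 6.5, so it does not check the labels. For the poly-A control transcripts, spiked in ahead of labelling, 24 of 24 probe sets were brighter on the SOX17 array (median log2 ratio 0.57). Of the hybridisation control probe sets, 15 of 18 were brighter there (median 0.11). The part of these shifts in the histone ratios was not tested. Of 10 squamous markers 7 had a named probe set, and all 7 were measured, with a summed intensity of 11371 with the empty vector and 10056.1 with SOX17. They did not move together, with 3 higher and 4 lower on the SOX17 array. LAMB3, the brightest of them, read 4818.1 and 3325.9. Of 6 leukocyte markers with a named probe set only CD79A was measured, and PTPRC read 19.5 and 38.4. CD79A read 112 and 96.9, lower with SOX17. The summed intensity of these 6 was 244.8 with the empty vector and 364.8 with SOX17. More of each sum came from values below the floor, such as CD14 (2.9 and 55.3) and LYZ (3.6 and 65.5), than from CD79A. The sum thus gives no leukocyte level. Of 7 fibroblast markers only COL1A1 was measured, at 780.2 and 845.1. The 7 summed to 945.5 and 1005.3, and the rest of these sums lay below the floor.

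The histone cluster genes as a group differed little between the arrays, and 1 of them stood far from the others. Each gene was counted once, by its brightest probe set (highest mean log2 value), and 20 of the 50 genes were measured on it. Of these, 13 had a higher intensity on the SOX17 array and 7 a lower one, where 54.6% of all measured genes were higher. Their median log2 ratio of SOX17 over empty vector was 0.12, against 0.03 over all 10034 measured genes. At 2-fold or more, 1 histone gene was higher (H2AC14) and 0 were lower, where 0.419% of all measured genes were higher and 0.329% lower. At 1.5-fold, 1 was higher (H2AC14 again) and 1 lower (H2BC4), where 3.78% of all measured genes were higher and 3.19% lower. Without replicates these counts describe size alone.

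**Figure D1:**
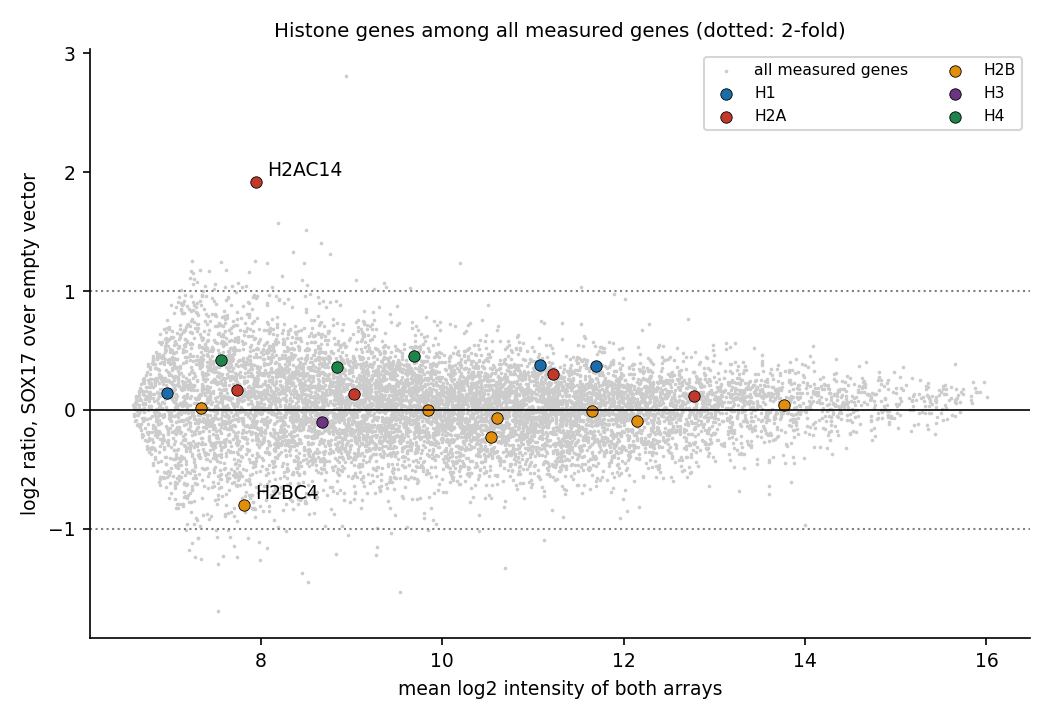
The log2 ratio of SOX17 over empty vector is plotted against the mean log2 intensity of both arrays for the 10034 measured genes (grey) and the 20 measured histone genes (coloured by family); dotted lines mark 2-fold. H2AC14 lies at 1.92 and H2BC4 at -0.80, while the other 18 histone genes lie between -0.23 and 0.46.

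The spread to expect of a single ratio was taken from genes with several measured probe sets. Over 4574 such genes the SD of 1 log2 ratio was 0.27, with 0.35 for the dimmest tertile (below an intensity of 523), 0.26 for the middle and 0.19 for the brightest (above 1477). This is error inside 1 pair of arrays, without the variation of separate cultures. Among the 23 measured histone probe sets, 9 (39.1%) lay more than 1 SD from 0, as did 38.7% of all 17364 measured probe sets. More than 2 SD from 0 lay 3 (13.0%), those of H2AC14, H2BC4 and H1-10, against 9.51% of all measured probe sets. The share beyond 1 SD was thus near that of the whole array.

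**Figure D2:**
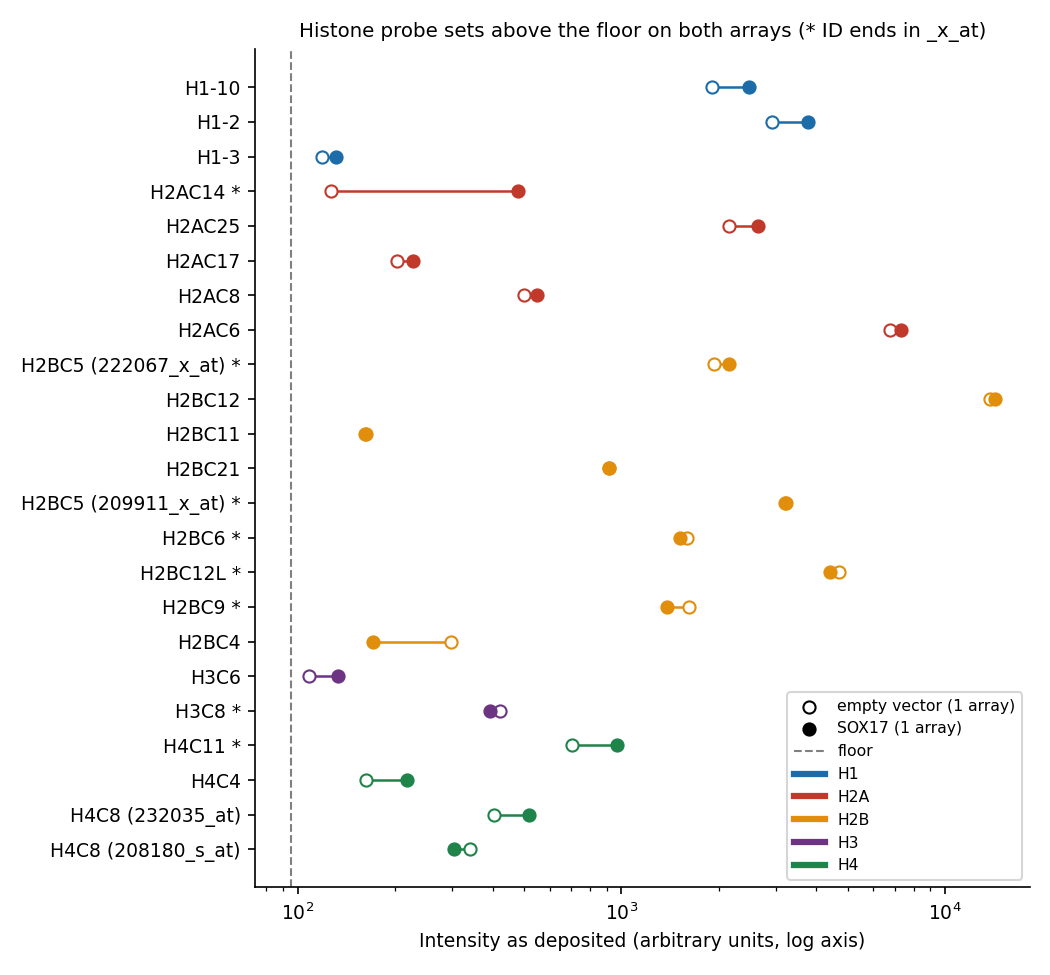
Intensities of the 23 histone probe sets measured on both arrays are drawn on a log axis, with the empty vector array as an open and the SOX17 array as a filled circle; an asterisk marks an ID ending in _x_at. The line for H2AC14 runs from 127.1 to 479.6 and is the longest, and that for H2BC4 runs the other way, from 297.4 to 170.8.

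H2AC14 encodes a replication-dependent H2A protein. Its single probe set, an _x_at set, read 127.1 with the empty vector and 479.6 with SOX17. The log2 ratio was 1.92 (3.77-fold), which is 5.46 times the SD of 1 ratio at that level, and 1 other measured gene had a higher ratio. The empty vector value lay close to the floor of 95. No other probe set was paired with H2AC14 alone or with histone genes only, so no set examined here repeats the measurement. Sets shared with other kinds of genes were not examined.

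The other 4 measured H2A genes lay above 0, each by less than 2 SD of 1 ratio. H2AC25 read 2148.2 and 2648.2 on the empty vector and SOX17 arrays (log2 ratio 0.30, or 1.62 SD), but its other probe set, an _x_at set, read 101.3 and 70.8 under the floor on the SOX17 array. H2AC6 read 6757.1 and 7323 (0.12), H2AC8 500.4 and 547.7 (0.13), and H2AC17 202 and 226.3 (0.16). All 5 measured H2A probe sets were thus higher on the SOX17 array, 4 of them by at most 1.23-fold, where 51.1% of all measured probe sets were higher.

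Promoters are shown for H2AC14, for the sequence that H2BC4 shares with its neighbour, and for 1 linker and 1 H4 gene. RefSeq promoters (GRCh38.p14) were found for 43 of the 50 members, 38 of them on chromosome 6, where their windows span 2.17 Mb. The 250 bases before the start site are printed 5′ to 3′ on the strand of the gene, with capitals for matches on either strand to TATAAA (the core promoter element that binds TBP), CCAAT, ATTTGCAT (the octamer bound by POU2F1), AACAAT and ACAAAG (letters of SOX family sites). H2AC14 (chr6:27814778-27815027, minus strand) had the highest ratio, H2AC6 (chr6:26123922-26124171, plus strand) shares its promoter with H2BC4, and H1-2 (chr6:26056471-26056720, minus strand) and H4C11 (chr6:27823842-27824091, plus strand) stand for the linker and the H4 genes.
H2AC14: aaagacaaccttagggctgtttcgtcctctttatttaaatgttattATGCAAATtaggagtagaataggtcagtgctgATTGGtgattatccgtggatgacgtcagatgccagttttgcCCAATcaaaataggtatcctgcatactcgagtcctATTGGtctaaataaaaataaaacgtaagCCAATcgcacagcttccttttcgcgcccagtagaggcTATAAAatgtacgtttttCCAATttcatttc
H2AC6: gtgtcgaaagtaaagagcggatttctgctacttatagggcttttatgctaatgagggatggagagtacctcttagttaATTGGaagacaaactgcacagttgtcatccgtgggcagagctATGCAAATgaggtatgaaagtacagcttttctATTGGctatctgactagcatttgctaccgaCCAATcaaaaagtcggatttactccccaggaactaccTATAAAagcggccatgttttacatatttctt
H1-2: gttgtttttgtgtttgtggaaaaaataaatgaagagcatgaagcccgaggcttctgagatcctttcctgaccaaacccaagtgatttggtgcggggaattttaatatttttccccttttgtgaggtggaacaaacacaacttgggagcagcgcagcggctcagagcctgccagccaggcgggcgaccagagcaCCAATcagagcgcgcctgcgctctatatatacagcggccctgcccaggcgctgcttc
H4C11: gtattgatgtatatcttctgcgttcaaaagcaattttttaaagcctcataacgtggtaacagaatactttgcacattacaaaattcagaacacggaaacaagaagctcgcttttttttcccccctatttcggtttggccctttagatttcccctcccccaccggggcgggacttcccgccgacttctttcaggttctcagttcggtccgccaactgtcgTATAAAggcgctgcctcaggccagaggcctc

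H2AC14, H2AC6 and H4C11 each hold TATAAA starting at position -31 from the start site. CCAAT matches number 5 in H2AC14, 3 in H2AC6, 1 in H1-2 and 0 in H4C11. The octamer is present in the H2AC14 sequence, starting at position -204, and in that of H2AC6, at position -130. Over the 47 promoters of the 43 members, 63.8% held TATAAA (10.7% of all 35116 promoters in the table), 85.1% held CCAAT (32%) and 36.2% held the octamer (1.63%). A match counted at any position and on either strand. The only TATAAA match of H2BC4, for example, starts at position -220 on the opposite strand. CCAAT was found in 28.6% of H4 promoters, 80% of H1 promoters and 100% of H2A, H2B and H3 promoters. The octamer was found in 6 of 8 H2A and 11 of 15 H2B promoters and in 0 of the H1, H3 and H4 promoters. The 15 H2B promoters belong to 13 genes, because H2BC5 and H2BC12 are each counted with windows that nearly coincide. Divergent neighbours also share bases, so these promoters are not independent of each other. AACAAT was found in 4 of the 47 promoters (8.51%, against 8.98% of all) and ACAAAG in 6 (12.8%, against 13.7%). Neither was found in the 4 sequences printed here. Matches of different motifs did not overlap in the members' promoters. A match is a string of letters, and binding was not measured.

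Some histone genes lie head to head with a neighbour of another family. H2BC14, which shares 256 bases of its RefSeq promoter window with H2AC14, read 99 with the empty vector and 48.3 with SOX17, under the floor on the latter. H2BC4 and H2AC6, which share 255 bases, were the only pair with both genes measured. H2BC4 read 297.4 and 170.8 and H2AC6 6757.1 and 7323, so they lay on opposite sides of 0. H2AC17 was measured (202 and 226.3), while its neighbour H2BC17 read 67.1 and 28.1, below the floor on both arrays.

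H2B genes lay close to 0, apart from H2BC4. On 9 measured probe sets of 8 genes the median log2 ratio was -0.01. Of these sets 3 were above 0 and 6 below, where 51.1% of all measured probe sets were above 0. After quantile normalization 5 of the 9 were above 0 and the median was 0.01. H2BC4, by its own probe set, was 1.74-fold higher on the empty vector array (log2 ratio -0.80, or -2.28 SD), and 93 of 10034 measured genes had as low a ratio. The other H2B genes lay between -0.23 and 0.16. H2BC12 read 13784.8 and 14215.2 (0.04), H2BC21 918 and 917.2 (0.00) and H2BC11 161.5 and 162.9 (0.01). H2BC12L read 4695.2 and 4408.1 (-0.09), H2BC6 1591.7 and 1518.9 (-0.07) and H2BC9 1614.3 and 1379.2 (-0.23), all on _x_at sets. H2BC5 had 2 measured sets, both _x_at, at 3221.5 and 3200 (-0.01) and at 1926.7 and 2152.2 (0.16). The sets of H2BC5 thus differed by less than the error of 1 ratio.

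**Figure D3:**
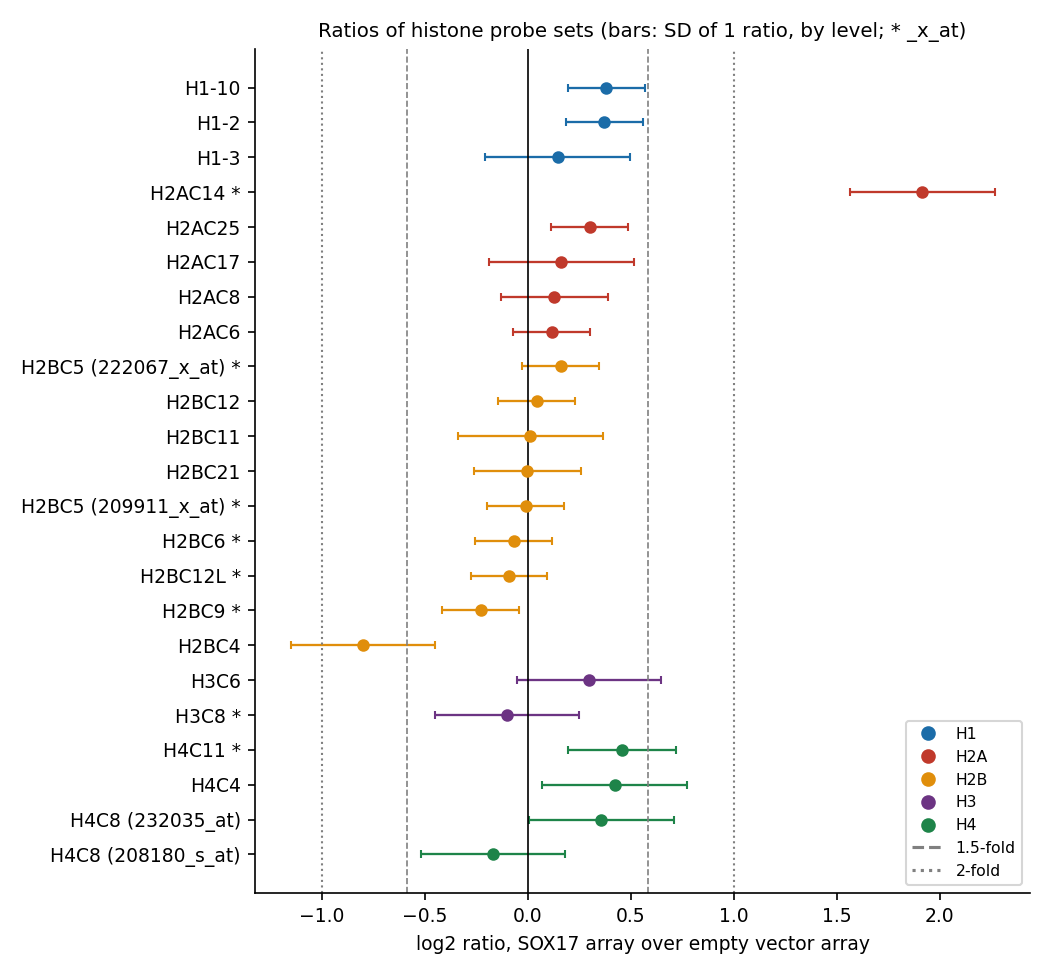
The log2 ratio of SOX17 over empty vector is shown for each of the 23 measured histone probe sets, coloured by family, with a bar of 1 SD of a single ratio at that level; an asterisk marks an ID ending in _x_at. H2AC14 is the only set past 2-fold and H2BC4 the only one past 1.5-fold on the other side, and H2B sets other than H2BC4 sit within 0.23 of 0.

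Linker histone genes were measured for 3 of 11 H1 symbols, which include the pseudogene H1-9P and the antisense RNA H1-10-AS1. All 3 were higher on the SOX17 array, where 54.6% of all measured genes were higher. H1-2, a somatic linker histone gene of the cluster on chromosome 6, read 2909.9 and 3765.5 (log2 ratio 0.37, 1.29-fold, 2.0 SD). H1-10, which lies outside that cluster, read 1898.4 and 2473.8 (0.38, 1.30-fold, 2.05 SD). H1-3 read 118.8 and 131.4 (0.15), within its error. Of all measured genes, 11.2% had a ratio as high as that of H1-10 and 11.8% as high as that of H1-2. The somatic genes H1-1, H1-4 and H1-5, the testis genes H1-6 and H1-7 and the oocyte gene H1-8 lay below the floor on both arrays.

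Of 4 measured H4 probe sets, 3 were higher on the SOX17 array and 1 was lower, where 51.1% of all measured probe sets were higher. H4C11 read 703.7 and 966.6 (log2 ratio 0.46, 1.76 SD) on an _x_at set, and H4C4 read 162.8 and 218.2 (0.42, 1.2 SD). H4C8 had 2 measured sets that lay on opposite sides of 0, at 404.5 and 518.4 (0.36) and at 340.6 and 303.3 (-0.17). Each of the 4 ratios was below 1.5-fold. H3 genes had 2 measured sets, that of H3C6 at 108 and 132.8 (0.30) and that of H3C8 at 421.9 and 393.5 (-0.10, an _x_at set), both within the error of 1 ratio. H3C6 is not among the 20 genes counted above, because its set of highest mean, at 84.4 and 177.2, lay under the floor on the empty vector array.

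The H1, H2A and H4 medians stayed above 0 when the ratios were centred on their median, after quantile normalization and after loess. Of the 8 measured _x_at sets 5 belong to H2B, and 3 of the 8 were above 0; of the other 15 sets 12 were above 0. Among _x_at sets 1 of 5 H2B sets and 2 of 3 sets of other families were above 0, and among the rest 2 of 4 H2B sets and 10 of 11 sets of other families. On the whole array, 51.1% of measured probe sets were above 0. A difference between families was not tested, since each rests on 2 to 9 probe sets of 1 pair of arrays.

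Probe sets shared by several histone genes fall outside the rule and give a second view of the same families. There were 20 of them, paired with 40 histone genes in all, 19 of which are not among the members. Of the 20 sets, 16 were measured, 12 above 0 and 4 below, with a median log2 ratio of 0.09. Of all measured probe sets paired with 1 gene, 51.1% were above 0. Several shared sets are paired with the same genes, so the 16 are not separate observations. The 3 measured H4 sets, each paired with the same 14 H4 genes, were all higher on the SOX17 array, and the other 3 H4 sets lay below the floor on both arrays. The first read 20627.1 and 29013.9 (log2 ratio 0.49, 1.41-fold, 2.64 SD), the second 190.8 and 218.2 (0.19). The third, an _x_at set, read 440.1 and 1018.7 (1.21, 2.31-fold, 4.65 SD). These sets name the same genes and yet range from 1.14-fold to 2.31-fold.

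Shared H2B sets disagreed in direction. Both sets paired with H2BC8 and H2BC11 were measured: one read 761 and 406.1 (log2 ratio -0.91) and the other 535.1 and 626.2 (0.23), on opposite sides of 0. The 3 sets paired with H2BC4, H2BC6, H2BC7, H2BC8 and H2BC10 lay at 0.09, -0.17 and 0.42, and each is paired with 4 genes besides H2BC4, so they give no value of H2BC4 alone. The 5 shared H2A sets lay between -0.18 and 0.37, those paired with 6 H2A genes including H2AC17 at 0.17 and 0.37. The 2 measured sets paired with H2A and H3 genes lay at -0.21 and 0.05, and the 1 measured H3 set at 0.04.

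**Figure D4:**
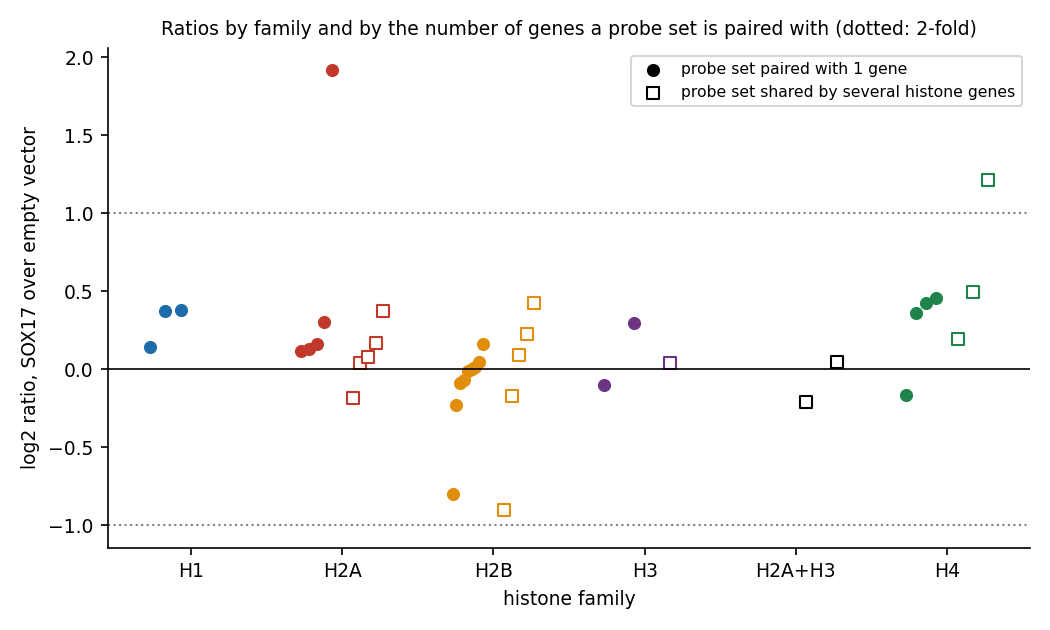
The log2 ratio of SOX17 over empty vector is plotted by histone family for measured probe sets paired with 1 gene (filled circles) and with several histone genes (open squares); dotted lines mark 2-fold. All 3 shared H4 squares lie above 0, up to 1.21, while the shared H2B squares run from -0.91 to 0.42.

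Most histone symbols could not be measured. Of the 50 genes, 29 had no measured probe set. On 29 of the 58 sets both intensities were below 95. On another 6 sets the floor was reached on 1 array only, 4 of them higher on the SOX17 array and 2 lower. H3C2 read 35.7 and 105.7 there and H2AC16 92.7 and 112.2. None of the 6 reached 2 times the floor, so no fold is given. The testis H2B gene H2BC1 read 21.5 and 33.5. A value below the floor gives no level for its gene.

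Genes that make, process and handle histones were taken from lists of genes with textbook roles, each gene counted by its brightest probe set. Each list below stands beside all measured genes, of which 54.6% were above 0, with a median log2 ratio of 0.03. Among histone genes outside the clusters 7 were measured, 6 above 0 (5 after loess) and 1 below, with a median log2 ratio of 0.10. The H2A gene H2AJ read 2502.2 and 3388 (0.44, with 0.26 on its other set), H2AZ1 32662.5 and 36793.6 (0.17), H2AX 4559.8 and 4249.3 (-0.10), MACROH2A1 17151.2 and 18732.9 (0.13) and H3-3A 269 and 271.3 (0.01). MACROH2A1 had 5 measured sets, from -0.36 to 0.42. None of the 7 reached 1.5-fold.

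Genes for transcribing, cutting and degrading histone mRNA were split, 9 above 0 and 10 below of 19 measured, with a median of -0.05. SLBP, which binds the stem-loop, read 7459.7 and 7047 (-0.08). NPAT read 532.1 and 449.8 (-0.24), and CASP8AP2, a further component of the histone locus body, 769.6 and 736.2 (-0.06). The uridylyltransferases TUT7 (1102.1 and 836.3, -0.40) and TUT4 (572.7 and 436.4, -0.39) were lower, and the 4 measured sets of TUT7 all lay between -0.52 and -0.30. MIF4GD, a partner of SLBP in translation, lay at 0.38 (0.66 on its other set) and LSM10, a subunit of the U7 particle that guides the cut, at 0.33. By its brightest set, none of the 19 reached 1.5-fold, and another set of ERI1 lay at -0.65.

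Histone chaperones and importers had a median of 0.06 over 24 measured genes, 14 above 0 (13 after centring) and 10 below. ASF1B, which hands H3 and H4 to the assembly machinery, was the only one past 1.5-fold by its brightest set, at 311.1 and 517.9 (0.74, 1.66-fold), where 3.78% of all measured genes were higher and 3.19% lower. Other measured sets were past 1.5-fold for NAP1L1 (-1.09), ANP32E (-0.84), RBBP4 (-0.67) and DAXX (0.85). The histone importer gene IPO4 lay at 0.50, the CENPA chaperone HJURP at 0.45 and UBN1 of the HIRA complex at -0.42. S phase genes had a median of 0.11 over 26 measured, 19 above 0 (18 after quantile normalization) and 7 below, and none past 1.5-fold by its brightest set. Over all measured genes the median was 0.03, with 54.6% above 0. E2F1 had a set at 0.68, while its brightest set lay at -0.23. PCNA, the replication clamp, read 15665.4 and 15452.6 (-0.02). The helicase subunit MCM2 lay at -0.56, the clamp loader RFC4 at 0.39, the cyclin CCNE1 at 0.35 and GINS2 at 0.33. The median of the histone cluster genes (0.12) was 0.01 above that of the S phase list, and this difference was not tested.

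**Figure D5:**
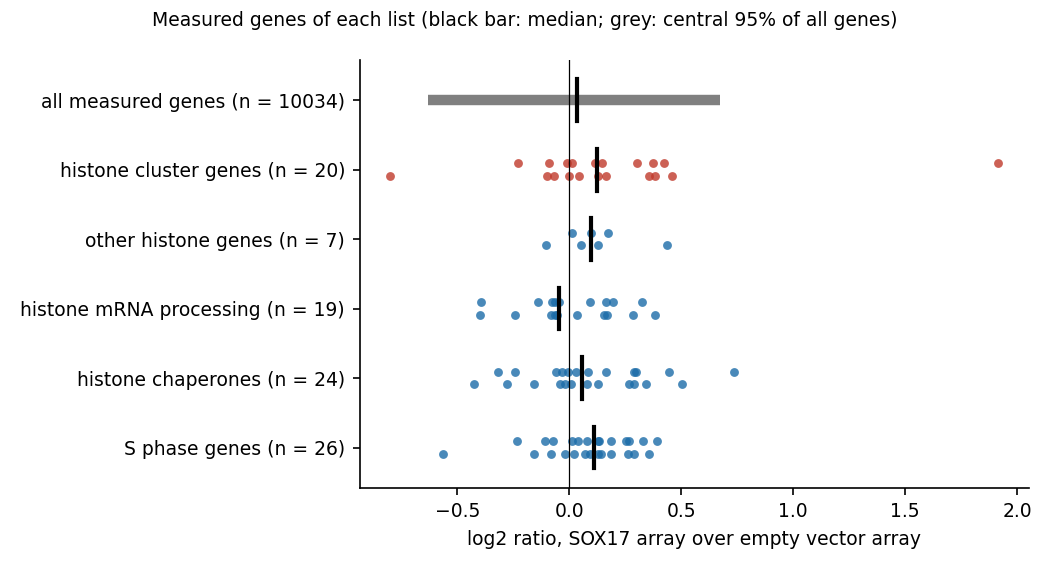
Log2 ratios of SOX17 over empty vector are shown for the measured genes of each list, with the median as a black bar and the central 95% of all 10034 measured genes (-0.63 to 0.67) as a grey bar. The medians lie between -0.05 and 0.12, and H2AC14, H2BC4 and the chaperone ASF1B are outside the grey range.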

How the data were processed

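The authors made the intensities with GCOS, per the submitters' processing notes, and deposited them on a linear scale, a value for each probe set on each array. Its algorithm and settings are not given in the sources used here. Values were used as deposited. Probe sets were named from GEO's platform annotation: 41091 were paired with 1 gene, 1801 with several, 11721 with none, and 62 were controls. All 50 member genes were found in the RefSeq table by gene ID, and 0 had another current symbol.

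Log2 ratios, the floor (60th percentile), the choice of probe set and the thresholds of 1.5-fold and 2-fold were applied to the whole table. No p-value was computed, since 1 array per group leaves no spread, and this small number sets the precision. Named were all histone genes with a measured probe set, and of each other list the 4 measured genes with the largest absolute log2 ratio plus NPAT, SLBP, CASP8AP2, H2AZ1, H2AX, H3-3A, H3-3B and PCNA where measured. Below-floor members, marker genes, NAP1L1, ANP32E, RBBP4, DAXX, ERI1, E2F1 and probe sets shared by histone genes were named after their values were seen. The members and lists were chosen with earlier results of these data known.

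Alternatives were centring, quantile normalization, loess (span 0.4), a 50th or 75th percentile floor, no floor and means over probe sets. Others were leaving out _x_at sets, alone or with _s_at sets, 32 added to both intensities, and H2AW, H2BU1, H3-4 and H4-16 as members. The computation used matplotlib 3.10.9, statsmodels 0.14.6, scipy 1.17.1, pandas 2.3.3 and numpy 2.4.6 under Python 3.11.15. Only the step from intensities to gene ratios was tested on simulated data, with known changes put into the empty vector values. The simulated noise did not depend on the level, so recovery near the floor was not tested.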

Additional observations from a re-analysis of the deposited data

How the results depend on the processing

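No paired analysis was possible because each group has 1 array. The median log2 ratio of the measured histone genes stayed between 0.08 (floor at the 75th percentile) and 0.15 (without _x_at and _s_at sets) over all settings, and the log2 ratio of H2AC14 between 1.69 and 1.92 wherever it was kept. The counts depended on the floor and on single probe sets. With the floor at the 50th percentile 27 histone genes were measured. Of these, 2 were at least 1.5-fold and 2 at least 2-fold higher, H3C6 being the addition, where 5.92% and 1.11% of all genes were. With the floor at the 75th percentile 14 histone genes were measured, and neither H2AC14 nor H2BC4 was among them. Of the 14, 0 were 1.5-fold higher, 0 were 1.5-fold lower and 0 were 2-fold higher (all genes 1.43%, 1.79% and 0.0926%). With no floor all 50 histone genes counted, 11 of them 1.5-fold higher and 13 lower, and 7 of them 2-fold higher and 10 lower. Among all genes 21.4% were then 1.5-fold higher and 14.6% lower, and 14.2% were 2-fold higher and 9.48% lower. Without _x_at sets, without _x_at and _s_at sets, and without H2AC14, all of which leave that gene out, 0 were 1.5-fold and 0 were 2-fold higher. In that order 13, 10 and 19 histone genes were measured. Of all genes, 3.64%, 4.08% and 3.77% were then 1.5-fold higher, and 0.412%, 0.5% and 0.409% were 2-fold higher. With the shared probe sets added, 36 histone units were measured. Of these, 2 were 1.5-fold higher, 2 were 1.5-fold lower and 2 were 2-fold higher (all genes 3.78%, 3.19% and 0.428%). Leaving out H2AC14 and adding the shared sets were chosen after the data had been seen. No probe set was paired with H2AW, H2BU1 or H4-16, and that of H3-4 lay under the floor on the SOX17 array, so adding them changed nothing.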
